A study of Homo sapiens with 6 samples.

Results

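The genes described are those that encode the proteins of the cytosolic ribosome, measured by RNA sequencing in LNCaP prostate cancer cells and in an enzalutamide-resistant derivative. Members were chosen by name alone, as protein-coding genes whose symbol is RPL, RPS or RPLP followed by a number, with an optional letter A, X or L and further digits. The rule found 83 of the 35554 genes in the table. Of these, 76 were canonical ribosomal protein genes, and the other 7 were paralogues (RPL3L, RPL7L1, RPL10L, RPL22L1, RPL26L1, RPL39L and RPS27L), which were set apart. The RPSA, FAU and RPL36AL genes also encode ribosomal proteins or a near copy of one but lie outside the name pattern, and they are given separately.

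LNCaP is an established line from a metastasis of human prostate cancer. The parental group held 3 flasks of LNCaP itself and the resistant group, here LNCaP-enzaR, held 3 flasks of a line that was selected from LNCaP by continuous exposure to enzalutamide, an inhibitor of the androgen receptor, and then kept on less of the drug. Whether the drug was present at harvest is not stated. The comparison asks how the resistant line differs from its parent. Only 1 selected line was compared with its parent, so the 3 flasks of each line share 1 culture history, and p-values measure the spread between flasks.

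Each ribosome joins a small subunit, which reads the mRNA, with a large subunit, which forms peptide bonds, and the proteins of both are made in nearly equal numbers. Most mRNAs of ribosomal proteins begin with a C followed by a run of pyrimidines (C or T), the 5′ terminal oligopyrimidine tract or TOP. Through this tract the kinase mTOR and the RNA-binding protein LARP1 control their translation together. RNA sequencing measures the amount of such an mRNA, not its translation and not the number of ribosomes.

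The start of the mRNA is shown for the members that the results turn on. In RefSeq (GRCh38.p14), the annotated start was found for 66 of the 83 members. A tract was counted where the first base at a start was a C and at least the 4 bases after it were each C or T, on the strand of the gene, and for genes with several annotated starts the start with the longest tract was taken. By this rule 45 of 61 canonical members (73.8%) and 1 of 5 paralogues held a tract, against 5.14% of the 27305 genes in the promoter table. A match is a description of the annotated letters, and starts were not measured in these cells. In the windows that follow, which run from 10 bases before the start to 20 bases from it, the capitals mark the tract. The first 8 belong to the members with the lowest fold changes, and every one of them holds a tract:
RPL27A: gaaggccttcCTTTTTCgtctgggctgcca (chr11:8682782-8682811, plus strand)
RPS25: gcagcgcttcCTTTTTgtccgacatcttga (chr11:119018324-119018353, minus strand)
RPLP2: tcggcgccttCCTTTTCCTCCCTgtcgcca (chr11:809957-809986, plus strand)
RPS3: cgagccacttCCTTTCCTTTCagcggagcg (chr11:75399508-75399537, plus strand)
RPS13: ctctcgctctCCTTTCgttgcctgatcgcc (chr11:17077648-17077677, minus strand)
RPL21: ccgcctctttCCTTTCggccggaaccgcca (chr13:27251548-27251577, plus strand)
RPL31: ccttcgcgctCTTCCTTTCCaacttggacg (chr2:101002279-101002308, plus strand)
RPL37A: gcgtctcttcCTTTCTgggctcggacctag (chr2:216498834-216498863, plus strand)

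The next 5 belong to the members with the highest fold changes, of which RPS27A and RPL28 hold a tract at their annotated start and the other 3 do not:
RPL3: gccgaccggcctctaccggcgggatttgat (chr22:39319604-39319633, minus strand)
RPS27A: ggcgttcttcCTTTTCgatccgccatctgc (chr2:55232678-55232707, plus strand)
RPL28: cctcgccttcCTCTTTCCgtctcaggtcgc (chr19:55385922-55385951, plus strand)
RPL15: tggggcctgctggaggagcttcacgcagtc (chr3:23916535-23916564, plus strand)
RPS7: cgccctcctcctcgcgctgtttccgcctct (chr2:3575250-3575279, plus strand)

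Of the paralogues, RPL22L1 holds a tract like its partner RPL22, whereas RPL10L and RPS27L have none where RPL10 and RPS27 do:
RPL22: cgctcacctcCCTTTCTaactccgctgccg (chr1:6199576-6199605, minus strand)
RPL22L1: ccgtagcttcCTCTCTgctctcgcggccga (chr3:170870176-170870205, minus strand)
RPL10: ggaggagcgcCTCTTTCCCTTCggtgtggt (chrX:154398367-154398396, plus strand)
RPL10L: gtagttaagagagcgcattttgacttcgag (chr14:46651762-46651791, minus strand)
RPS27: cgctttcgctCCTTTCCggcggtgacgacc (chr1:153990752-153990781, plus strand)
RPS27L: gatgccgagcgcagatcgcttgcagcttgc (chr15:63157458-63157487, minus strand)

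The libraries held 77759122 to 98616465 counts, and all 76 canonical members and 6 of 7 paralogues were among the 19711 genes that passed the filter on low counts. RPL39L, a paralogue best known from the testis, did not pass, with 8 counts in parental replicate 2 and 0 in each of the other 5 libraries. Transcripts of the mitochondrial genome took 6.72% to 7.06% of the counts in parental libraries and 14.7% to 15.5% in LNCaP-enzaR. The 8 luminal prostate markers were all expressed, with a summed level of 4227 to 4379 counts scaled to 1000000 per library (CPM) in parental libraries and 3816 to 4030.0 CPM in LNCaP-enzaR, whereas 5 leukocyte markers summed to at most 0.216 CPM in any library. Fibroblast markers (6 of 8 in the table) summed to 14.7 to 17.9 CPM in parental libraries and to 8.24 to 9.03 CPM in LNCaP-enzaR, and endothelial markers to 5.57 to 6.10 and 3.94 to 4.35 CPM. The part of these differences in the results was not tested.

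LNCaP-enzaR replicate 1 stood apart from the other libraries. Against LNCaP-enzaR replicates 2 and 3, the chi-square of its counts was 31.2 to 39.1 per degree of freedom, compared with 5.70 to 9.48 between the other pairs of a line, where sampling noise alone gives 1. The canonical members had a median level 0.22 higher on the log2 scale in replicate 1 than in replicates 2 and 3, and 69 of the 76 had their highest LNCaP-enzaR value there. Ribosomal protein mRNAs are short, with a median length of 782 bases for the annotated canonical transcript, and other short mRNAs moved with them. Among other protein-coding genes of at least 10 CPM, replicate 1 exceeded replicates 2 and 3 by a median of 0.24 for transcripts of up to 500 bases (45 genes) and by 0.22 for those above 500 and up to 1000 bases (381 genes), while above 5000 bases (2696 genes) it lay lower, at −0.091. Parental replicate 1 deviated the other way and less, by −0.081 for the canonical members. The counts and median of the canonical members, and the values of several single genes, are therefore also given without LNCaP-enzaR replicate 1. Other results, such as the further gene lists and the comparison with genomic neighbours, are given with all libraries only.

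**Figure D1:**
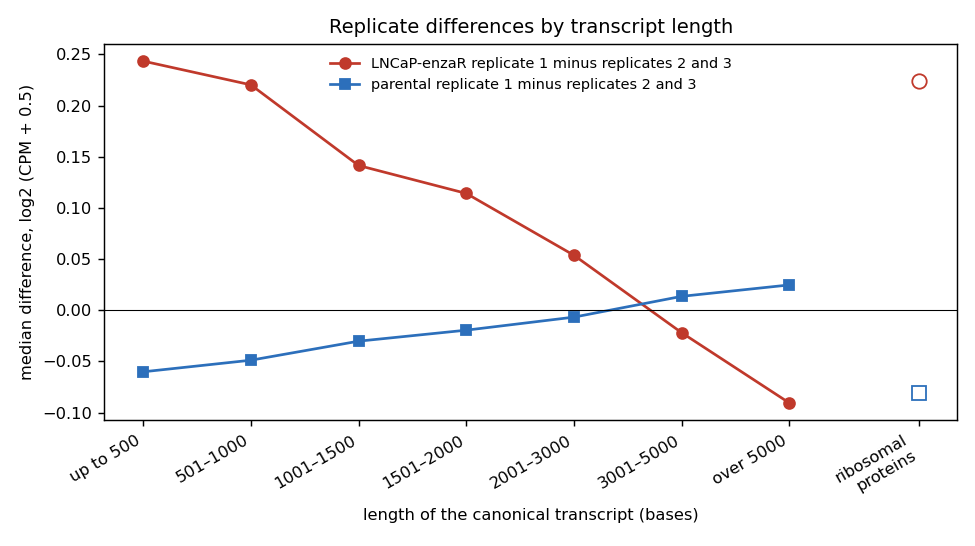
Median difference between replicate 1 and the mean of replicates 2 and 3, in log2 (CPM + 0.5), for protein-coding genes of at least 10 CPM grouped by transcript length in bases, with the 76 canonical ribosomal protein genes as open symbols at the right. In LNCaP-enzaR (red) the difference fell from 0.24 in the shortest class to −0.091 in the longest, and the ribosomal protein genes (0.22) lay at the level of the short classes. In parental cells (blue) the slope ran the other way, from −0.060 to 0.025.

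Few canonical ribosomal protein genes differed strongly between the lines. Only RPL27A and RPL21 fell past the threshold and none rose. A gene passed where its adjusted p was 0.05 or less and its level differed 1.5-fold or more (edgeR quasi-likelihood test, Benjamini-Hochberg adjustment over all genes tested). This was 2 of 76 members lower and 0 higher, where the same threshold called 19.5% of all tested genes lower and 23.3% higher. With the adjusted p alone, 31 members were lower, 6 were higher and 39 were neither, compared with 32.8% lower and 33.5% higher over all genes. Log2 fold changes ran from −0.71 to 0.48, and the interquartile range was −0.27 to 0.0052, beside −0.51 to 0.64 for all tested genes.

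The median log2 fold change of the canonical members was −0.099, beside 0.013 over all genes tested and −0.11 over the 9084 other protein-coding genes of at least 10 CPM. Fold changes were below 0 for 56 members and above 0 for 20. All 3 LNCaP-enzaR libraries lay below all 3 parental libraries for 27 members and above them for 7, and in the remaining 42 the lines overlapped. Over all tested genes, the lines were separate with lower values in LNCaP-enzaR for 35.0% and with higher values for 35.6%. Without LNCaP-enzaR replicate 1, 7 members were lower past the threshold (18.7% of all genes) and 0 higher (22.1%), 52 were lower and 7 higher by adjusted p alone (32.8% and 33.2%), and the median was −0.19 beside 0.014 over all genes. Other protein-coding genes of at least 10 CPM then had a median of −0.11, and those of up to 1000 bases also had −0.11. All 31 members that were lower with every library were among those 52. With libraries scaled on other short mRNAs instead, an alternative chosen after the data were seen, 2 members were lower past the threshold (19.3% of all genes) and 0 higher (22.8%), and 35 were lower and 6 higher by adjusted p alone (30.7% and 31.9%).

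**Figure D2:**
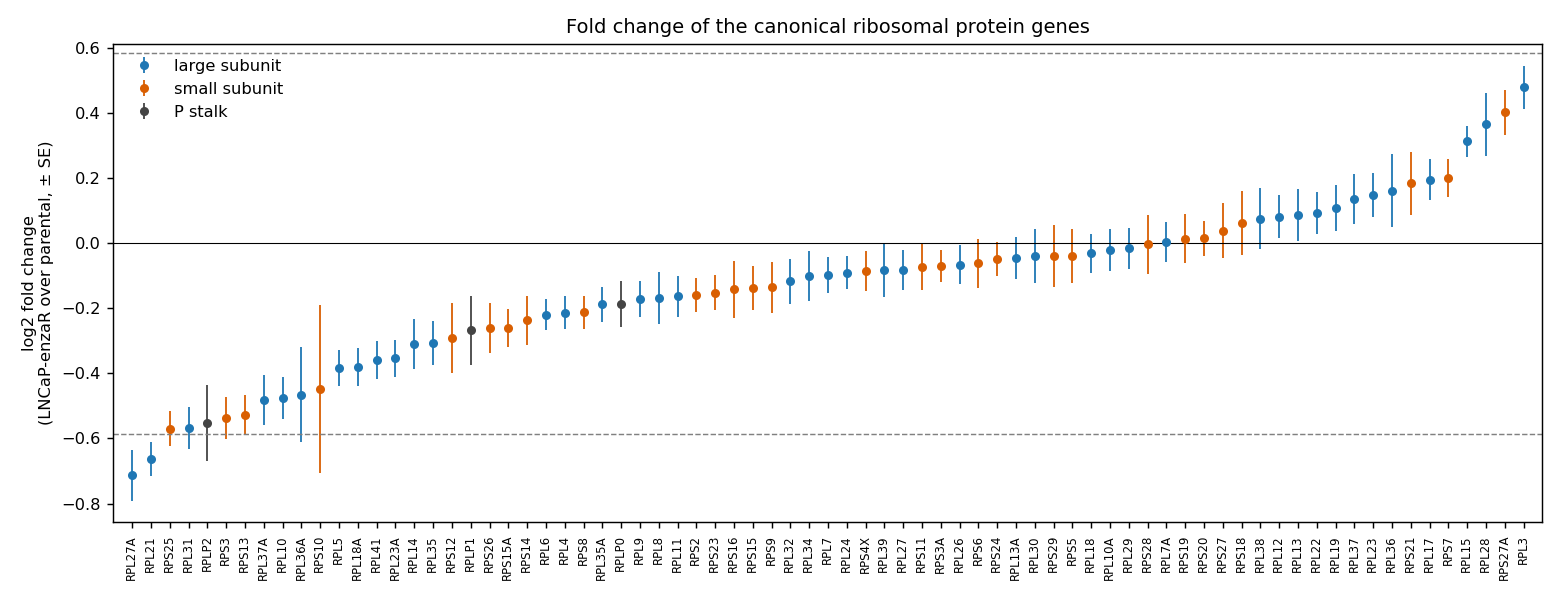
Log2 fold change of LNCaP-enzaR over parental cells for each canonical ribosomal protein gene, in ascending order, with bars of 1 standard error; 1 of the 76 is not shown. Dashed lines mark the 1.5-fold limit. Only RPL27A and RPL21 lie beyond it, and members of the large subunit (blue), small subunit (orange) and P stalk (black) are interspersed.

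Both subunits were represented along the whole order. The 43 proteins of the large subunit outside its stalk were at a median of −0.090 on the log2 scale, with 17 members lower and 4 higher by adjusted p. The 30 proteins of the small subunit had a median of −0.11, with 11 lower and 2 higher. Over all tested genes 32.8% were lower and 33.5% higher by adjusted p. The difference between subunits was not tested. Together the canonical genes took 7.87% to 8.34% of the counts in parental libraries. In LNCaP-enzaR the share was 8.06% in replicate 1, 6.99% in replicate 2 and 7.26% in replicate 3, so the lines overlapped through replicate 1. With the counts of the mitochondrial genome left out of the total, the share was 8.73% ± 0.264 (SD, n = 3) in the parental line and 8.75% ± 0.638 (SD, n = 3) in the resistant line. In bulk RNA, fewer cells that express a gene and less of its RNA per cell cannot be told apart.

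**Figure D3:**
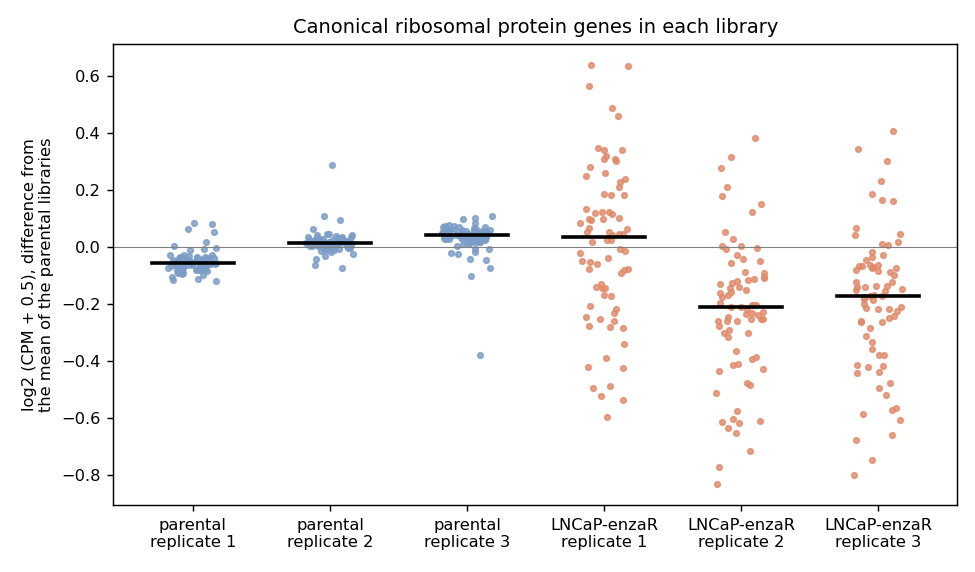
Log2 (CPM + 0.5) of each canonical ribosomal protein gene in each library, as the difference from its mean over the parental libraries; points are genes and bars are medians. The medians of LNCaP-enzaR replicates 2 and 3 lie at −0.21 and −0.17, and that of replicate 1 at 0.035, within the range of the parental libraries (−0.054 to 0.042).

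The members with the lowest values included proteins of both subunits. RPL27A (ENSG00000166441.13, chromosome 11, 8682788 to 8714759, GRCh38), a protein of the large subunit, was measured at 996, 1089 and 1131 CPM in parental replicates 1 to 3 and at 746, 601 and 615 CPM in LNCaP-enzaR replicates 1 to 3. Every resistant library lay below every parental library, and RPL27A fell by 0.71 on the log2 scale (SE 0.078, adjusted p = 1.52e-06 by edgeR). RPL21 (ENSG00000122026.11, chromosome 13, 27251362 to 27256691), also of the large subunit, had 618, 645 and 638 CPM in parental libraries and 419, 386 and 396 CPM in LNCaP-enzaR. Its values were the more tightly grouped of this pair, and RPL21 fell by 0.66 on the log2 scale (SE 0.052, edgeR adjusted p = 5.03e-08). Under upper-quartile scaling, RPL21 was at −0.56 and short of the fold limit.

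The members just outside the limit of 0.58 on the log2 scale were RPS25, RPL31 and RPLP2. RPS25 (chromosome 11, 119015712 to 119018691), a protein of the small subunit known for its part in initiation at internal ribosome entry sites, had 829, 872 and 894 CPM in parental libraries and 613, 567 and 567 CPM in LNCaP-enzaR (log2 fold change −0.57, SE 0.054). RPL31 (chromosome 2, 101002229 to 101024032), at the rim of the peptide exit tunnel of the large subunit, had 541, 554 and 569 CPM against 414, 357 and 352 CPM (−0.57, SE 0.064). Both were clear of overlap between the lines, and each passed the fold limit under scaling by library totals, without LNCaP-enzaR replicate 1 and without parental replicate 1, with values of −0.64 to −0.59.

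The P stalk is the flexible arm of the large subunit that recruits and activates the translation factors that use GTP. Its acidic protein RPLP2 (chromosome 11, 809965 to 812880) had 789, 857 and 924 CPM in parental libraries and 741, 502 and 510 CPM in LNCaP-enzaR, with −0.55 on the log2 scale (SE 0.12, edgeR adjusted p = 0.00083). Replicate 1 lay much nearer to the parental libraries than the other 2 resistant libraries did, and without it the log2 fold change of RPLP2 was −0.75. The second acidic protein, RPLP1, had 1124, 1182 and 1284 CPM in parental libraries and 1230.1, 859 and 893 CPM in LNCaP-enzaR (−0.27, SE 0.11, edgeR adjusted p = 0.0389). RPLP0, which anchors both to the ribosome, had 2914, 3002 and 3127 CPM and then 2987, 2420.4 and 2537 CPM (−0.19, SE 0.070, edgeR adjusted p = 0.0302). For RPLP1 and RPLP0 the lines overlapped through LNCaP-enzaR replicate 1, and without it the log2 fold changes were −0.44 and −0.27.

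The highest fold change was that of RPL3, a large-subunit protein that reaches into the peptidyl transferase centre. RPL3 (ENSG00000100316.16, chromosome 22, 39312882 to 39320389) had 2820.2, 2939 and 3009 CPM in parental libraries and 4542, 3809 and 3874 CPM in LNCaP-enzaR (log2 fold change 0.48, SE 0.066, edgeR adjusted p = 1.62e-05). RPS27A, which is made as a fusion with ubiquitin, had 412, 433 and 448 CPM against 639, 523 and 547 CPM (0.40, SE 0.070, edgeR adjusted p = 0.000156). RPL28, of the large subunit, had 763, 826 and 839.6 CPM against 1261, 916 and 952 CPM (0.37, SE 0.096, edgeR adjusted p = 0.00382). In these 3 genes every resistant library was above every parental library, and LNCaP-enzaR replicate 1 was the highest. Without that library RPL28 was at 0.21.

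RPL15, which lies deep in the large subunit, was the steadiest of the higher members. It had 1541, 1602 and 1600.2 CPM in parental libraries and 1972, 1968 and 1952 CPM in LNCaP-enzaR, with replicate 1 level with the others (log2 fold change 0.31, SE 0.048, edgeR adjusted p = 4.53e-05). RPS7, a small-subunit protein that also binds MDM2, had 602, 638 and 636 CPM against 775, 681 and 699 CPM (0.20, SE 0.058, edgeR adjusted p = 0.00763). None of the 5 reached the fold limit, and all 5 kept values above 0 without LNCaP-enzaR replicate 1, from 0.15 in RPS7 to 0.40 in RPL3.

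Further members were followed for known roles outside the ribosome or in disease. RPL5 and RPL11 carry the small ribosomal RNA of the large subunit into the ribosome and, when free, bind MDM2 and thereby stabilise p53. RPL5 was lower in every resistant library, with 845 ± 8.53 CPM in the parental line and 648 ± 40.8 CPM in the resistant line (mean ± SD of 3 libraries each; log2 fold change −0.38, SE 0.055, edgeR adjusted p = 2.57e-05). RPL11 had 545 ± 14.2 and 486 ± 45.7 CPM and the lines overlapped (−0.16, edgeR adjusted p = 0.0370). Without LNCaP-enzaR replicate 1, RPL5 was at −0.43 and RPL11 at −0.23. RPS6, the substrate of the S6 kinases downstream of mTOR, had 1841 ± 99.0 and 1763 ± 212 CPM, and its adjusted p was 0.487 by edgeR. RPS19, the gene most often mutated in Diamond-Blackfan anaemia, had 419 ± 11.8 and 423 ± 54.4 CPM, and its adjusted p was 0.888 by edgeR. The log2 fold changes of RPS6 (−0.062) and RPS19 (0.013) were smaller than their standard errors of 0.075 each, and both turned sign under some alternatives. Without LNCaP-enzaR replicate 1 they were −0.16 and −0.091 (edgeR adjusted p = 0.0013 and 0.0306).

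RPS26, also linked to that anaemia, had 242 ± 11.2 CPM in parental cells and 202 ± 26.2 CPM in LNCaP-enzaR (−0.26, SE 0.078, edgeR adjusted p = 0.00882), with overlap through replicate 1. RPL41, which encodes the shortest ribosomal protein, had 969 ± 45.9 and 756 ± 49.2 CPM without overlap (−0.36, SE 0.059, edgeR adjusted p = 9.61e-05). Counts of pseudogenes named after RPL41 equalled 9.93% of its own in parental cells. Across all members, 560 pseudogenes named after ribosomal protein genes held 1.35% to 1.56% of the summed counts of the canonical members and these pseudogenes in a library. Adding them to their parent genes gave the same counts of 2 members lower and 0 higher past the threshold.

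The lowest canonical members shared a chromosome, a feature that the name rule did not use and that was noticed after the values were seen. All 5 members on chromosome 11 (RPL27A, RPS25, RPLP2, RPS3 and RPS13) were among the 7 lowest of the 76, between −0.71 and −0.53. In all 5 every resistant library lay below every parental library, which held for 35.0% of all tested genes. RPS3, a small-subunit protein at the mRNA entry channel, had 1322, 1387 and 1396 CPM in parental libraries and 1046, 871 and 912 CPM in LNCaP-enzaR (−0.54, SE 0.065). RPS13, of the small subunit, had 560.2, 593 and 603 CPM against 437, 385 and 396 CPM (−0.53, SE 0.059). The 71 members on other chromosomes had a median of −0.087, with 51 below 0. Without LNCaP-enzaR replicate 1, the chromosome 11 members ranged from −0.81 to −0.58, and 4 of the 5 were then lower past the threshold (18.7% of all genes).

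The 1026 other tested genes of chromosome 11 also had a median below 0, at −0.27 on the log2 scale. Of these, 29.7% were lower past the threshold, compared with 19.5% over all genes. Within 1 Mb, neighbours had medians of −0.43 around RPL27A (18 genes), −0.35 around RPS25 (45 genes) and −0.086 around RPS3 (20 genes). Those of RPLP2 (65 genes) were at 0.075 and those of RPS13 (17 genes) at 0.37, opposite to the members. Protein-coding neighbours of at least 10 CPM within 1 Mb were at 0.043 around RPLP2 (32 genes) and −0.19 around RPS13 (7 genes). FAU, the ribosomal protein gene of chromosome 11 that lies outside the name pattern, was at −0.23 (SE 0.096, edgeR adjusted p = 0.0509), and at −0.38 without LNCaP-enzaR replicate 1. RPL21 is the only member on chromosome 13, where 335 other tested genes had a median of −0.29 and 33.7% were lower past the threshold. Chromosome 12, with 981 other genes at a median of −0.18, carried 4 members (RPL41, RPS26, RPL6 and RPLP0). All 4 were lower by adjusted p (32.8% of all tested genes), at −0.36 to −0.19. Across the 21 chromosomes that carry canonical members, the median of the members and that of the other tested genes differed in sign on 11. The sign depends on the genes compared. On chromosome 19, with 12 members at a median of −0.042, the other tested genes were at 0.043. Other protein-coding genes of at least 10 CPM there were at −0.043. All 3 members on chromosome 15 were lower by adjusted p (32.8% of all tested genes), with a median of −0.27. Its 677 other tested genes had a median of 0.12, and its other coding genes of at least 10 CPM had 0.024. All 4 members on the X chromosome were below 0, with a median of −0.28 and 2 of them lower by adjusted p. The 638 other tested genes there had a median of 0.069, and the other coding genes of at least 10 CPM had 0.029.

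On chromosome 2 the 4 members were split. RPS7 (start at 3575260) and RPS27A (start at 55231903) were higher, at 0.20 and 0.40, and RPL31 (start at 101002229) and RPL37A (start at 216498825) were lower, at −0.57 and −0.48. RPL37A, a zinc-finger protein of the large subunit, had 768, 817 and 831 CPM in parental libraries and 663, 524 and 542 CPM in LNCaP-enzaR. The other tested genes within 10 Mb had medians of 0.28 around RPS7 (62 genes), 0.53 around RPS27A (90 genes), −0.51 around RPL31 (123 genes) and −0.55 around RPL37A (96 genes). In each of the 4, the member and the median of its neighbours within 10 Mb had the same sign. Within 1 Mb the neighbours of RPS7 (10 genes) were at −0.021, opposite to RPS7. The 4 of them that were protein-coding with at least 10 CPM were at 0.147.

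Over all 76 canonical members, the log2 fold change and the median of the other tested genes within 10 Mb had a Pearson correlation of 0.49 and a Spearman correlation of 0.37. With windows of 1 Mb and 5 Mb the Pearson correlations were 0.33 and 0.40. Without the 5 members of chromosome 11, the 10 Mb value was 0.41 over 71 members. These are descriptions across genes that share the same 6 libraries and in part the same neighbours, and the 5 Mb and 10 Mb windows were chosen after the data were seen. Some members departed from their neighbours. RPL10 on the X chromosome was low (−0.47) with neighbours at 0.21, RPL15 was high (0.31) with neighbours at −0.13, RPL28 was high (0.37) with neighbours at −0.019, and RPL3 (0.48) exceeded its neighbours at 0.12. RPL27A (−0.71) and RPLP2 (−0.55) lay further below 0 than their neighbours within 10 Mb, at −0.18 for each. DNA copy number was not measured in these samples, and its part in the pattern was not tested.

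**Figure D4:**
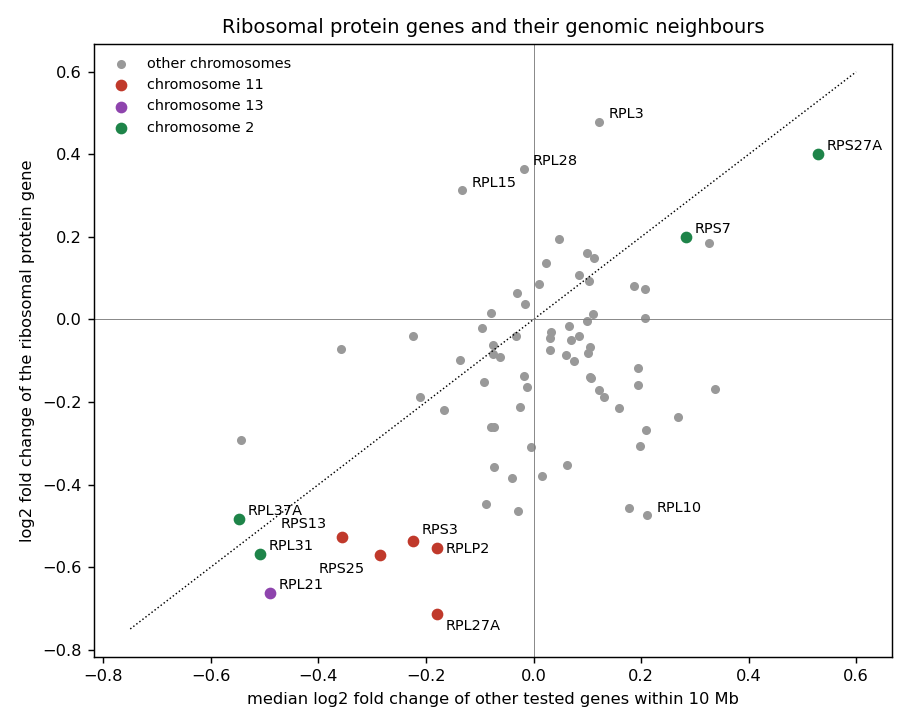
Log2 fold change of each canonical ribosomal protein gene (vertical axis) against the median log2 fold change of the other tested genes within 10 Mb (horizontal axis); the dotted line marks equal values. Members on chromosome 11 (red), chromosome 13 (purple) and the 4 members on chromosome 2 (green) lie in the lower left or upper right. Those on chromosome 11 all lie below the line, RPL27A and RPLP2 well away from it. RPL15 and RPL28 lie in the upper left, RPL10 in the lower right, and RPL3 in the upper right above the line.

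Members with and without a TOP tract were also compared. On the log2 scale, the median fold change was −0.14 for the 45 canonical members with a tract at an annotated start, of which 33 were below 0, and −0.061 for the 16 without one, of which 11 were below 0. The difference between both sets was not tested.

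The canonical members with the highest levels were largely the same in both lines. Per kilobase of the annotated canonical transcript, RPS2 was the highest in parental cells, at 5293 CPM per kb, followed by RPS18 (4033), RPL7A (3907) and RPL13A (3198). In LNCaP-enzaR the same scale gave RPS2 at 4740.5, RPS18 at 4214, RPL7A at 3914 and RPL3 at 3144, with RPL3 up from 2255 in parental cells. Across the 76 members, log2 CPM per kb in both lines had a Pearson correlation of 0.993, as a description over genes counted in the same libraries. Both values were divided by the same transcript length, and parental levels per kb spanned 2482-fold. A value near 1 therefore says little about single members. Of the members, 72 had at least 100 CPM on average in parental cells.

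Members with low counts are uncertain. RPS10 was listed at 1.25 CPM in parental cells and 0.921 CPM in LNCaP-enzaR and RPL36A at 2.93 and 2.13 CPM, far below the other canonical members, while RPL17 had 51.3 and 58.7 CPM. These 3 were picked out after their values were seen. Exons of other genes, readthrough genes among them, covered 31.5% of the exonic bases of RPS10 and 22.4% of those of RPL36A, and the pseudogene RPS10P7 had 7.61 and 8.81 CPM, more than RPS10 itself. How reads with more than 1 possible gene were counted is not given in the sources used here. For RPL10 the share covered was 53.4%, and its value is uncertain for the same reason.

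Paralogues replace or accompany their partner in some tissues. Of the 6 tested, 1 fell (RPL22L1) and 1 rose (RPL10L) past the threshold, where 19.5% of all tested genes were lower and 23.3% higher. RPL22L1, whose product can take the place of RPL22 in the large subunit and whose mRNA is repressed by RPL22 protein, had 308, 317 and 310.0 CPM in parental libraries and 175, 176 and 178 CPM in LNCaP-enzaR. The 3 resistant libraries were nearly equal, LNCaP-enzaR replicate 1 included, and RPL22L1 fell by 0.82 on the log2 scale (SE 0.049, edgeR adjusted p = 2.41e-09). RPL22 itself had 116, 111 and 109 CPM and then 108, 125 and 126 CPM, with overlap between the lines (0.093, SE 0.065, edgeR adjusted p = 0.224). Without LNCaP-enzaR replicate 1, RPL22 was at 0.17 (edgeR adjusted p = 0.000836). RPL22L1 counts were 278% of those of RPL22 in parental cells and 148% in LNCaP-enzaR, so the paralogue had more counts than its partner in both lines.

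RPL10L, a copy of the X-linked RPL10 on chromosome 14 that is best known from male germ cells, had 8.43, 8.79 and 8.05 CPM in parental libraries and 20.5, 18.6 and 17.3 CPM in LNCaP-enzaR. It rose by 1.16 on the log2 scale (SE 0.086, edgeR adjusted p = 2.52e-08) and was the only member of either class that rose past the threshold. RPL10 had 1113, 1136 and 1215 CPM in parental libraries and 912, 774 and 806 CPM in LNCaP-enzaR (−0.47, SE 0.065, edgeR adjusted p = 1.48e-05). The paralogue thus had 0.730% of the counts of RPL10 in parental cells and 2.26% in LNCaP-enzaR. Of the 723 windows of 50 bases in the annotated transcripts of RPL10L, 1 was found base for base in those of RPL10.

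The other paralogues differed by less than 1.5-fold. RPL7L1, a nucleolar relative of RPL7, had 331, 315 and 305 CPM in parental libraries and 234, 248 and 242 CPM in LNCaP-enzaR (−0.39, SE 0.053, edgeR adjusted p = 1.46e-05). RPL26L1 had 67.1, 69.7 and 71.4 CPM against 63.7, 53.7 and 52.0 CPM (−0.30, SE 0.075, edgeR adjusted p = 0.00289). RPS27L, a target of p53, had 104, 108 and 98.5 CPM against 115, 123 and 118 CPM (0.20, SE 0.057, edgeR adjusted p = 0.00722). In these 3 genes the lines did not overlap. The muscle paralogue RPL3L was barely detected, at 0.864 to 1.25 CPM in parental libraries and 0.883 to 1.07 CPM in LNCaP-enzaR, and its adjusted p was 0.867 by edgeR.

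A ratio of paralogue to partner within a library does not depend on the scaling between libraries. In the log2 ratio, LNCaP-enzaR differed from parental cells by −0.91 for RPL22L1 to RPL22, 1.63 for RPL10L to RPL10, −0.51 for RPL3L to RPL3, −0.29 for RPL7L1 to RPL7 and 0.51 for RPL36AL to RPL36A. In each of these 5 pairs the lines were separate in 3 of 3 libraries, which gave p = 0.10 in a two-sided exact permutation test, the smallest that 3 against 3 libraries allow, and 0.14 after adjustment over the 7 pairs compared. In 2 of the pairs the partner differed more than the paralogue. RPL3L was at −0.047 and RPL3 at 0.48, and RPL36AL was at 0.051 and RPL36A at −0.47. RPL36A is uncertain, at 2.93 and 2.13 CPM. RPL26L1 to RPL26 (−0.24, exact permutation p = 0.30, adjusted 0.35) and RPS27L to RPS27 (0.17, exact permutation p = 0.40, adjusted 0.40) overlapped through LNCaP-enzaR replicate 1. The partners RPL7 (−0.098), RPL26 (−0.066), RPS27 (0.038) and RPL39 (−0.083) had adjusted p-values of 0.132 to 0.713 by edgeR. Each of these 4 log2 fold changes turned sign under at least 1 alternative. Without LNCaP-enzaR replicate 1, RPL7 was at −0.14 and RPL39 at −0.19 (edgeR adjusted p = 0.00121 and 0.000167). RPL26 was then at −0.010 and RPS27 at −0.079 (edgeR adjusted p = 0.847 and 0.101).

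**Figure D5:**
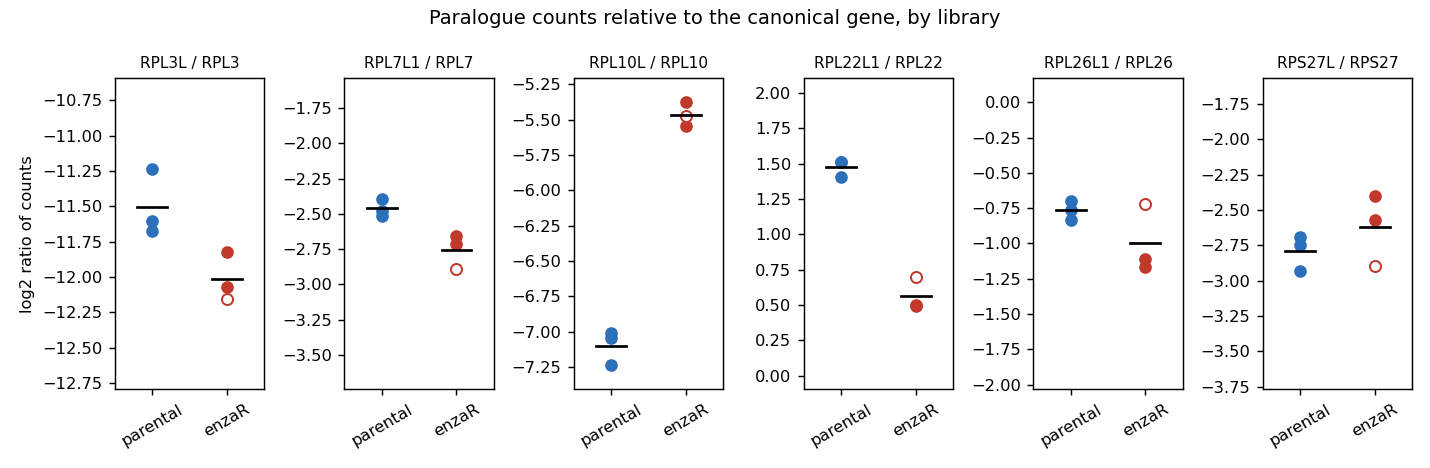
Log2 ratio of the counts of each paralogue to those of its canonical partner in each library, with bars at the group means and LNCaP-enzaR replicate 1 as an open circle. All panels span the same 2.2 log2 units. The ratio of RPL22L1 to RPL22 was lower and that of RPL10L to RPL10 higher in every resistant library, whereas RPL26L1 and RPS27L overlapped through replicate 1.

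The ribosomal protein genes outside the name pattern lay in the range of the canonical members. RPSA, the small-subunit protein also known as a laminin receptor, had 1874 ± 42.8 CPM in parental cells and 1532 ± 111 CPM in LNCaP-enzaR (mean ± SD, 3 libraries each; −0.29, SE 0.058, edgeR adjusted p = 0.000467). RPL36AL had 199.8 ± 5.92 and 207 ± 24.2 CPM (edgeR adjusted p = 0.560). Neither these genes nor FAU passed the fold limit.

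Genes that share the TOP tract or serve to build the ribosome were counted by the same threshold, which called 19.5% of all genes lower and 23.3% higher. Of 17 TOP mRNAs that do not encode ribosomal proteins, 4 fell and 1 rose, with a median of −0.33 on the log2 scale. Of the same 17, 12 were lower and 2 higher by adjusted p alone (32.8% and 33.5% of all tested genes). HNRNPA1, a splicing regulator, fell from 1887 ± 39.1 to 974 ± 17.7 CPM (−0.95, edgeR adjusted p = 4.38e-10), and TPT1, which encodes the translationally controlled tumour protein, fell from 1068 ± 25.2 to 518 ± 46.7 CPM (−1.04, edgeR adjusted p = 3.15e-09). The 1 that rose past the threshold was EEF2, the elongation factor that moves the ribosome along the mRNA, from 5076 ± 188 to 8442 ± 906 CPM (0.73, edgeR adjusted p = 3.02e-07), named here after its value was seen. EEF1G, listed with them, was not analysed here.

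Of 40 ribosome assembly factors, 10 fell and 2 rose past the threshold (19.5% and 23.3% of all tested genes), with a median of −0.35. Of the same 40, 32 were lower and 4 higher by adjusted p alone (32.8% and 33.5% of all tested genes). NCL, which encodes nucleolin, fell from 1874 ± 24.5 to 885 ± 15.9 CPM (−1.08, edgeR adjusted p = 1.03e-10), and NOP58, a core protein of the box C/D ribonucleoproteins that guide methylation of ribosomal RNA, fell from 147 ± 9.29 to 60.8 ± 4.37 CPM (−1.28, edgeR adjusted p = 6.49e-10). Of 12 chaperones and importers of ribosomal proteins, 4 fell and 0 rose (median −0.52), and 8 were lower and 1 higher by adjusted p alone. The importins IPO5, from 262 ± 5.62 to 106 ± 3.82 CPM, and IPO7, from 401 ± 5.01 to 205 ± 13.3 CPM, fell by 1.31 and 0.96 on the log2 scale. Of 14 genes for transcription by RNA polymerase I and of the 5S RNA, 5 fell and 0 rose (median −0.20), among them GTF3A, the factor for the 5S genes (−0.83), and POLR1B, the second largest polymerase subunit (−0.72). In this list 6 were lower and 4 higher by adjusted p alone.

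For the next 3 lists, the shares over all tested genes are again 19.5% lower and 23.3% higher past the threshold. They are 32.8% and 33.5% by adjusted p alone. Among 14 host genes of small nucleolar RNAs, which also carry TOP tracts in many cases, 5 fell and 0 rose (median −0.23), with SNHG1 at −1.26 and SNHG3 at −0.74. Of these host genes, 7 were lower and 1 higher by adjusted p alone. Among 28 translation initiation factors, 4 fell and 1 rose past the threshold, and 14 were lower and 3 higher by adjusted p alone. Their median was −0.14, beside −0.11 for other protein-coding genes of at least 10 CPM. EIF4A2, an RNA helicase of the cap-binding complex, rose from 256, 241 and 220.3 CPM to 633, 723 and 732 CPM (1.54, edgeR adjusted p = 1.29e-10), and EIF4G2 fell from 1869 ± 39.0 to 909 ± 20.4 CPM (−1.04, edgeR adjusted p = 1.96e-10). Among 16 regulators of TOP translation and ribosome production, 4 fell and 0 rose (median −0.23), and 11 were lower and 3 higher by adjusted p alone. EIF4EBP1, the translation inhibitor that mTOR phosphorylates, fell from 157 ± 3.22 to 61.1 ± 3.84 CPM (−1.36, edgeR adjusted p = 8.79e-11), and TIAL1, an RNA-binding protein that represses TOP mRNAs, was at −0.71. MYC, a transcription factor that drives ribosomal protein genes, was at 267 ± 7.26 and 310.3 ± 8.59 CPM (0.22, edgeR adjusted p = 0.00179), and LARP1 at 623, 620.2 and 634 CPM against 565, 537 and 538 CPM (−0.19, edgeR adjusted p = 0.00304), both within 1.5-fold.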

How the data were processed

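The authors prepared polyadenylated RNA libraries, sequenced them as paired-end reads, trimmed adapters with Cutadapt, aligned to GRCh38 with STAR and GENCODE v38, and ran featureCounts. The values they deposited are raw counts of reads for 35554 genes in 6 libraries. Strand setting and treatment of reads with several matches are not given in the sources used here.

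Counts were fitted with edgeR 4.0.16 (R 4.3.3; filterByExpr, TMM, robust quasi-likelihood F-test, no covariate) on all 19711 genes that passed the filter, with Benjamini-Hochberg adjustment over them. The threshold was 0.05 for the adjusted p and 1.5 for the fold change. CPM are per TMM-scaled library, with a pseudocount of 0.5 where log2 levels are given, and SE is the standard error of a log2 fold change. Coordinates are those of the table. Transcript length and exon overlap came from GENCODE v44. Ratios were compared by exact permutation over libraries (SciPy 1.17.1).

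The members and lists were chosen with earlier results of these data known. Genes named were the 5 highest and 5 lowest canonical members, the paralogues with their partners, the P stalk, RPL5, RPL11, RPS6, RPS19, RPS26, RPS27A and RPL41, the 4 genes outside the pattern, the 2 members of each further list with the smallest p, MYC and LARP1. RPS3, RPS13, RPL37A, RPL6 and the members named for level or low counts were added after their values were seen. Some of the genes in these lists are not reported by name here.

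DESeq2 1.42.0 was run as an alternative, as were other scalings, filters and thresholds, adding pseudogene counts, a replicate block, and leaving out libraries or mitochondrial genes. Same-numbered flasks did not deviate together (r = −0.052 to −0.0009), so the counts gave no sign of pairing by number. Whether they were handled in pairs cannot be read from this value. On counts simulated for this comparison, with 200 of 19711 genes changed, the edgeR test was run on 19185 genes and recovered 39 of 50 genes changed 1.5-fold and all 50 at each of 2-fold, 4-fold and 8-fold. Recovery meant an adjusted p of 0.05 or less in the right direction, without the fold limit. The median estimate of the genes changed 1.5-fold was 0.58 on the log2 scale, at that limit, so recovery by the full threshold was not tested. Far more genes (8425) were past the threshold in the data than were changed here.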

Additional observations from a re-analysis of the deposited data

How the results depend on the processing

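The count of canonical members lower past the threshold was 2, and it was 5 with library totals, 1 with upper-quartile scaling and 2 to 7 with 1 library left out (7 without LNCaP-enzaR replicate 1 and 5 without parental replicate 1). By adjusted p alone it was 31, and 52 without LNCaP-enzaR replicate 1, a setting chosen after seeing the data. The count of members higher past the threshold stayed at 0 with any library left out and was 6 by adjusted p alone and 7 when LNCaP-enzaR replicate 1 was left out as well. The median log2 fold change of −0.099 ranged from −0.19 to −0.070 with 1 library left out, and upper-quartile scaling, which put all genes at 0.11, gave 0.0016. The share of counts, −0.70 percentage points in LNCaP-enzaR relative to parental cells, ranged from −1.01 to −0.47 with 1 library left out and was 0.021 without mitochondrial counts. Over all genes tested, 8425 were past the threshold, 8372 to 8517 with 1 library left out, and 13074 by adjusted p alone. Scaling by short genes, also chosen after seeing the data, gave 2 canonical members lower and 0 higher. A replicate block in the fit gave 8212 calls over all genes, with 2 canonical members lower and 0 higher, so the block changed neither count of members.

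Of 850 values for 50 named genes under alternatives, 826 kept direction and side of the threshold, 9 moved past it (RPS25, RPL31 and RPLP2) and 1 dropped short of it (RPL21). The other 14 turned sign, all in genes near 0. Under upper-quartile scaling these were RPL3L (0.053), RPL7 (0.0029), RPL26 (0.035), RPL39 (0.017) and RPS6 (0.039), and under library totals RPS19 (−0.023). With 1 library left out, the ranges that crossed 0 were −0.16 to 0.12 for RPL3L, −0.079 to 0.12 for RPS27, −0.16 to 0.0056 for RPS6, −0.091 to 0.072 for RPS19 and −0.041 to 0.11 for RPL36AL. Apart from what each setting leaves out or rescales, the cause was not tested.

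Limits: 3 libraries of each line from 1 selection do not show how other resistant lines behave. The canonical members had a median of 61454 to 77872 counts in a library, so counting error was small beside the spread between flasks. Translation, protein and DNA copy number were not measured.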

Other observations

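The further genes of ribosome production that fell past the threshold were also placed unevenly, as noticed after their values were seen. Of 145 such genes tested (TOP mRNAs, host genes, assembly, polymerase I, transport, initiation and regulator lists together with the 4 ribosomal protein genes outside the name pattern), 27 (18.6%) lie on chromosomes 2, 11 and 13. Of the 36 that were lower past the threshold, 17 (47.2%) do, and of the 4 that were higher, 0 do. Over all tested genes the same chromosomes hold 13.2% of the genes and 21.6% of those lower past the threshold. The 17 include IPO7 (−0.96) and EIF4G2 (−1.04) on chromosome 11, TPT1 (−1.04), IPO5 (−1.31) and GTF3A (−0.83) on chromosome 13, and NCL (−1.08), NOP58 (−1.28) and POLR1B (−0.72) on chromosome 2. No test was made of these shares.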
